A study of Mus musculus with 10 samples.

Results

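Cumulus cells of 10-month-old mice were set against mural granulosa cells of 2-month-old mice, to ask what still separates these compartments of the follicle and what older cumulus cells share with mural cells. The libraries were chosen by their labels: 3 libraries of cumulus cells at 10 months and 2 of mural granulosa cells at 2 months, 5 of the 10 libraries in the series. All came from C57BL/6 mice, and the 3 libraries of cumulus cells at 2 months, also from C57BL/6 mice, are given as a reference level throughout. The protocols, which are worded alike for all libraries, name a medium with the phosphodiesterase inhibitor milrinone, a column kit for total RNA, and mice primed with eCG, a gonadotropin, as the source of mural cells. The sources used here do not give whether the cumulus donors were primed. Compartment, age and a possible difference in priming therefore change together between these groups and cannot be told apart. Nothing in the labels ties replicates to separate animals, and the p-values therefore reflect the spread among these libraries alone, which may be technical. Values are FPKM, fragment counts scaled to transcript length and to the library's mapped fragments, which allow levels to be compared between genes.

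Granulosa cells split into mural and cumulus compartments when the antral cavity of the follicle forms. Mural cells line the follicle wall, lie next to the basement membrane and the theca, and acquire LH receptors and steroid synthesis under FSH. Cumulus cells surround the oocyte and respond to the growth factors it secretes, which are known to keep the LH receptor low and to promote glycolysis, cholesterol synthesis and amino acid uptake on the oocyte's behalf. Mural cells supply the natriuretic peptide NPPC and cumulus cells its receptor NPR2, a pair that holds the oocyte in meiotic arrest.

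The libraries differed in markers of other cell types. The summed FPKM of a library lay between 470377 and 603460. An FPKM of 1 was reached by 11373 to 12590 genes, and replicates correlated at 0.902 to 0.931 among the 10-month cumulus libraries and 0.948 between the mural libraries (Spearman, across genes, which are not independent replicates). Cumulus replicate 2 at 10 months correlated at 0.945 and 0.946 with 2-month cumulus replicates 1 and 2. Its values with 10-month replicates 1 and 3 were lower, at 0.931 and 0.902. Of 11 mural markers, among them Lhcgr, Cyp11a1 and Cd34, the median log2(FPKM + 1) was 6.22 and 7.21 in mural replicates 1 and 2, and 4.07, 3.76 and 5.58 in 10-month cumulus replicates 1, 2 and 3. Cumulus replicate 3 at 10 months was the cumulus library nearest to the mural libraries on this list. Amh, a hormone gene of granulosa cells that is higher near the oocyte, was higher in every cumulus than in every mural library. The oocyte list (19 genes) summed to 256 to 541 FPKM at 10 months, 28.1 to 224 in mural cells and 5.96 to 1744 in cumulus cells at 2 months, and 0 of its members were at 0 in all 5 libraries. The immune list (22 genes) summed to 55.4 to 147 FPKM at 10 months, 43.4 to 91.8 in mural and 11.8 to 13.0 in 2-month cumulus cells. Ptprc, the pan-leukocyte marker CD45, stood below an FPKM of 1 in all 8 libraries, but other members stood higher. At 10 months H2-Ab1 stood at 11.2, 11.0 and 10.8 FPKM and Lyz2 at 6.91, 13.96 and 24.2. The median log2(FPKM + 1) of the tested members was 1.77, 2.70 and 2.84 at 10 months, 1.68 and 2.45 in mural and 0.324, 0.281 and 0.571 in 2-month cumulus cells. The endothelial list (13 genes) summed to 12.4 to 35.1, 42.3 to 99.2 and 7.62 to 9.87 FPKM, and the theca and stroma list (17 genes, some shared with the steroid list) to 77.9 to 231, 388 to 600.3 and 47.8 to 53.5 FPKM. The surface epithelium list (12 genes) summed to 60.5 to 131, 41.4 to 64.9 and 27.5 to 35.96 FPKM. The erythroid list (9 genes) summed to 43.6 to 167, 94.1 to 159.5 and 31.5 to 104 FPKM. Only 1 member, Slc4a1, the red cell anion exchanger, was at 0 in all 5 libraries compared. The hemoglobin gene Hba-a1 stood at 4.12, 2.35 and 70.8 FPKM at 10 months and 61.2 and 46.3 in mural cells. Hba-a2 stood at 19.96 FPKM in mural replicate 1, 0.0379 in mural replicate 2 and 0.0324 to 0.206 at 10 months. Both overlapped between the groups. Alas2 was lower in mural cells (log2 fold change -2.38, adjusted p = 0.0104). The part of red cells was not tested. In such bulk samples, fewer cells of a type and less RNA per cell cannot be told apart.

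**Figure D1:**
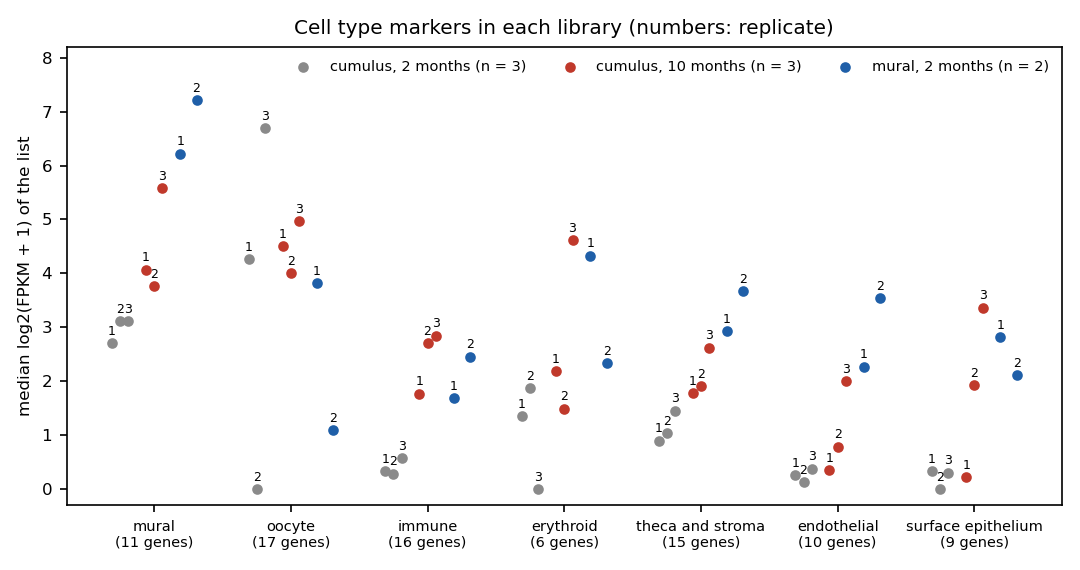
Median log2(FPKM + 1) of each marker list (horizontal groups, with the number of genes) in each library of cumulus cells at 2 months, cumulus cells at 10 months and mural cells, with the replicate number beside each point. Mural markers separate the groups, with cumulus replicate 3 at 10 months at 5.58 nearest to the mural libraries at 6.22 and 7.21, and immune markers are higher at 10 months and in mural cells than in cumulus cells at 2 months.

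The test covered 12510 genes and 1908 of them (15.3%) passed at an adjusted p under 0.05. Mural cells had the higher level in 916 (7.32%) and the lower level in 992 (7.93%). Of all genes tested, 499 (3.99%) passed as at least 2-fold higher and 435 (3.48%) as at least 2-fold lower. The libraries of the groups did not overlap in 6410 genes (51.2%), and an unadjusted p under 0.05 was reached by 4235 (33.9%). The difference was bounded on both sides for 6994 genes (55.9%), whose 95% confidence interval lay within 2-fold in either direction, and 205 of these (1.64% of all) passed as small differences. The number that passed depended on individual libraries. Leaving out mural replicate 2 gave 30 genes and mural replicate 1 gave 186, and the number was 584 without 10-month cumulus replicate 1 and 940 without 2-month cumulus replicate 2, which only adds to the estimate of spread. Without 10-month cumulus replicate 3 it was 2801 of 12402, of which 1239 were higher and 1562 lower in mural cells. Over all genes, 303 passed as higher and 281 as lower without 10-month cumulus replicate 1. Without 2-month cumulus replicate 2 these numbers were 488 and 452. The counts of list members with a library left out, given below, are to be read beside these changes over all genes. The share of higher genes among those that passed was 48.0%. After scaling all libraries to 1 common FPKM sum it was 70.2% (1537 higher, 654 lower), since the median log2 fold change over all genes shifted from -0.05 to 0.12. In the same model 0 genes (0.00%) passed between cumulus cells at 10 and 2 months (smallest adjusted p 0.0829), and 1763 (14.1%) reached an unadjusted p under 0.05. The gene lists used below, and their members, were chosen with earlier results of these data known. Their counts, medians and ranks beside all genes are therefore descriptions.

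**Figure D2:**
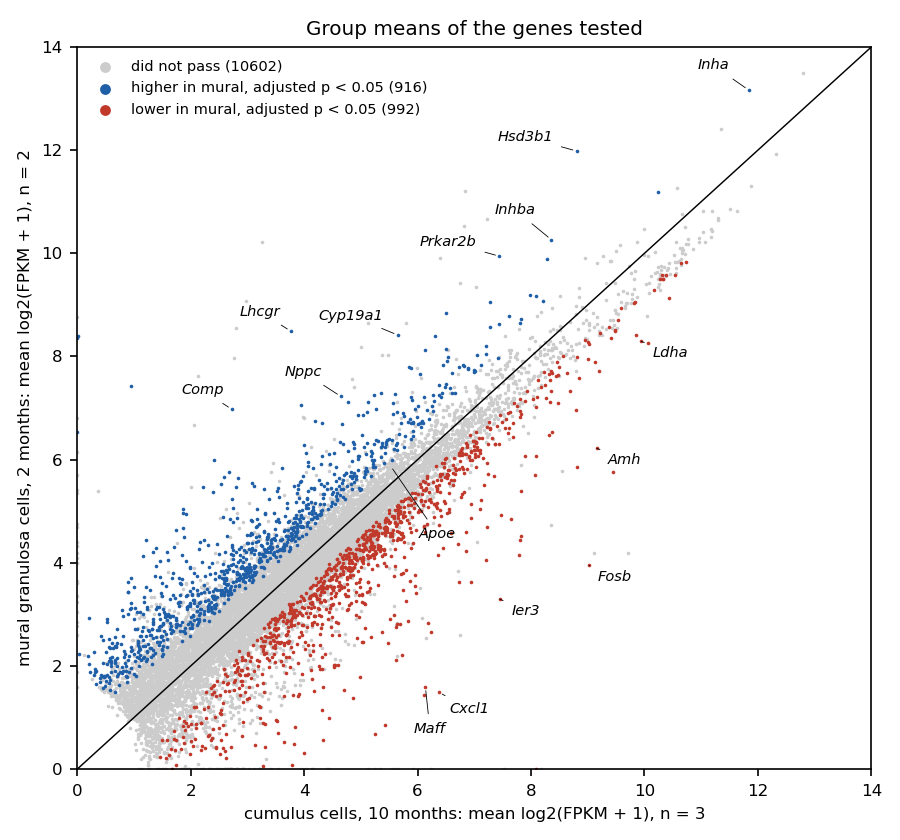
Mean log2(FPKM + 1) of 12510 genes in cumulus cells at 10 months (horizontal axis, n = 3) and in mural cells (vertical axis, n = 2). Each point is a gene, coloured where it passed, and the line marks equal means. Lhcgr and Hsd3b1 lie far above the line, Fosb and Cxcl1 far below it, and Apoe close to it.

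Some genes of steroid synthesis were higher in mural cells. Of 17 members, 6 passed as higher (Hsd3b1, Hsd3b6, Cyp17a1, Cyp19a1, Hsd17b7 and Fdxr) and 0 as lower, beside 7.32% and 7.93% of all genes. The median log2 fold change was 0.95 beside -0.05 over all genes. Aromatase, encoded by Cyp19a1, makes estradiol and stood at 38.9, 65.8 and 46.8 FPKM in 10-month cumulus replicates 1, 2 and 3 and at 324 and 358 in mural replicates 1 and 2 (log2 fold change 2.76 ± 0.23 SE, adjusted p = 0.00417). The groups lay far apart, and the 2-month cumulus libraries (32.5, 40.0 and 30.3 FPKM) lay with the older ones. Hsd3b1, which converts pregnenolone to progesterone, stood at 272, 435 and 757 against 3550.0 and 4604 FPKM (log2 fold change 3.17 ± 0.39, adjusted p = 0.00638). Here too every mural library lay above every cumulus library. Its close relative Hsd3b6 stood at 2.64, 3.81 and 7.35 against 34.8 and 47.4 FPKM, and reads of these near-identical paralogs may be split between them. Cyp17a1, the androgen enzyme for which theca cells are known, stood at 0.415, 9.55 and 9.12 against 61.5 and 63.0 FPKM (log2 fold change 3.57 ± 0.80, adjusted p = 0.0284). Its theca partner Insl3 stood below 2 FPKM in all 8 libraries. The theca and stroma list, which includes Cyp17a1 and Star, was higher in mural cells, at 388 to 600.3 against 77.9 to 231 FPKM. Its median log2 fold change was 0.92, and the part of theca cells in the mural value of Cyp17a1 was not tested.

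The steroid genes Cyp11a1, Star and Fdx1 were uneven among the older cumulus libraries and did not pass. Cyp11a1, which cuts cholesterol to pregnenolone, stood at 15.7, 255 and 773 FPKM at 10 months, 1067 and 2459.9 in mural cells and 18.0, 13.9 and 9.74 in 2-month cumulus cells (log2 fold change 3.44 ± 1.36, adjusted p = 0.121). Star, whose product delivers cholesterol to the inner mitochondrial membrane, stood at 2.56, 12.6 and 81.3 (10 months), 73.5 and 171 (mural) and 2.02, 1.47 and 1.88 (2-month cumulus) FPKM (log2 fold change 2.84 ± 1.10, adjusted p = 0.113). In both genes replicate 1 at 10 months lay at the level of young cumulus cells. Replicate 3 lay above mural replicate 1 for Star and below it for Cyp11a1. Fdx1, the ferredoxin that feeds electrons to Cyp11a1, stood at 226, 134 and 672 FPKM at 10 months and 322 and 596 in mural cells, whose ranges overlapped, and at 38.4, 31.2 and 34.7 in 2-month cumulus cells. For Fdx1 the 95% interval of the log2 difference between mural and 10-month cumulus cells ran from -0.71 to 2.07. Of the 17 members of the list, 5 had intervals within 2-fold (Por, Cyb5, Tspo, Hsd17b4 and Cyp1b1), a share below the 55.9% of all genes. The number that passed was 9 without 10-month cumulus replicate 3, 4 without replicate 1, 3 without mural replicate 1, 1 without mural replicate 2 and 3 without 2-month cumulus replicate 2. The median log2 fold change of the list against 2-month cumulus cells was 1.77, where 10 of 17 passed as higher, beside 10.5% of all genes. Between cumulus cells at 10 and 2 months it was 0.52, where 0 passed. These comparisons share libraries with the one above.

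The LH receptor and an A-kinase regulatory subunit separated the compartments, whereas the FSH receptor was held within 2-fold. Of 18 tested members of a list of 20 genes of gonadotropin receptors and protein kinase A, 4 passed as higher (Lhcgr, Prkar2b, Akap7 and Adcy9) and 1 as lower (Prkar2a), with a median of 0.21. Shares over all genes were 7.32% higher and 7.93% lower. The LH receptor gene Lhcgr stood at 1.93, 12.5 and 62.7 FPKM at 10 months and 279.9 and 459 in mural cells (log2 fold change 4.73 ± 1.05, adjusted p = 0.0278). The groups did not overlap, but the older cumulus libraries spread widely beside 2.02, 1.41 and 1.63 FPKM at 2 months. Prkar2b, a regulatory subunit of protein kinase A that FSH is known to induce in granulosa cells, stood at 147, 184 and 192 against 937 and 1031 FPKM (log2 fold change 2.50 ± 0.18, adjusted p = 0.00417). Its 2-month cumulus values (147, 178 and 141 FPKM) lay around those of 10 months. Prkar2a, the sister subunit, went the other way at 11.3, 9.10 and 11.1 against 6.11 and 6.502 FPKM (log2 fold change -0.65, adjusted p = 0.0281). Fshr stood at 59.0, 74.0 and 40.3 against 68.7 and 66.0 FPKM, with an interval of -0.30 to 0.82 around a log2 fold change of 0.26. The interval was within 2-fold for 10 of the 18 genes, a share near the 55.9% of all genes, with the catalytic subunits Prkaca and Prkacb, the stimulatory G protein Gnas and the transcription factor Creb1 among them. Without mural replicate 1 or mural replicate 2, 1 passed as higher and 0 as lower, without 2-month cumulus replicate 2 the numbers were 2 and 0, and 0 passed as lower without 10-month cumulus replicate 1.

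Of the meiotic arrest pair, the ligand was higher in mural cells, while the difference of the receptor did not pass. Nppc, the ligand, stood at 27.9, 31.0 and 16.1 FPKM at 10 months and 150.3 and 147 in mural cells (log2 fold change 2.58 ± 0.30, adjusted p = 0.00595), and at 34.1, 33.6 and 21.3 in cumulus cells at 2 months. Npr2, the receptor, stood at 199.8, 209 and 121 against 106 and 84.2 FPKM. The groups did not overlap, but with replicate 3 close to mural replicate 1 the difference did not pass (log2 fold change -0.86 ± 0.26, adjusted p = 0.0621). The anti-Mullerian hormone gene Amh stood at 740.0, 638 and 392.2 against 144 and 37.3 FPKM (log2 fold change -2.94 ± 0.52, adjusted p = 0.0157). Its lowest older cumulus library, replicate 3, lay among the young ones (426, 366 and 318 FPKM). Gja1, the gap junction protein connexin 43 of granulosa cells, was higher in mural cells at 1276, 1221 and 1114 against 2466 and 2209 FPKM (log2 fold change 0.96, adjusted p = 0.0194). Slc38a3, an amino acid transporter used as a cumulus marker, overlapped between the groups at 24.3, 61.0 and 40.3 and 43.8 and 19.3 FPKM (adjusted p = 0.550). In the list of 16 genes of meiotic arrest and cumulus markers, 12 were tested. Of these, 2 passed as higher and 3 as lower (Amh, Pfkp and Impdh2), beside 7.32% and 7.93% of all genes. The numbers were 0 and 1 without mural replicate 2, 1 and 2 without mural replicate 1, and 1 and 1 without 10-month cumulus replicate 1. They were 3 and 4 without 10-month cumulus replicate 3.

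Some genes of granulosa identity differed between the groups. Of 21 tested genes of 22, 5 passed as higher in mural cells (Inhba, Inha, Nr5a2, Gata4 and Gata6) and 2 as lower (Kctd14 and Wt1), with a median of 0.50. Beside these counts stand 7.32% of all genes higher and 7.93% lower, the latter near the share of this list. Inhba, the activin and inhibin beta A subunit, stood at 385, 246 and 371 FPKM at 10 months and 1096 and 1375 in mural cells (log2 fold change 1.90 ± 0.26, adjusted p = 0.00926). The 2-month cumulus libraries lay between them at 797, 711 and 540.3 FPKM. Inha, the inhibin alpha subunit, stood at 4163, 4010.1 and 2936 against 9833 and 8572 FPKM (log2 fold change 1.33, adjusted p = 0.0307). Nr5a2, a nuclear receptor that drives ovulation genes, stood at 67.9, 101.5 and 113 against 248.7 and 258 FPKM (log2 fold change 1.45, adjusted p = 0.0120). Kctd14 stood at 91.7, 199 and 181 against 33.3 and 18.6 FPKM (log2 fold change -2.53, adjusted p = 0.0100). Wt1, a transcription factor of immature granulosa cells, stood at 13.2, 13.3 and 22.3 against 5.16 and 3.60 FPKM (log2 fold change -1.66, adjusted p = 0.0146). The highest Wt1 level was in replicate 3 at 10 months, and cumulus cells held 7.04, 11.0 and 7.56 FPKM at 2 months. Esr2, Fst, Amhr2, Fshr, Bmpr1b, Acvr1, Smad2 and Smad3, 8 of 21, had intervals within 2-fold, beside 55.9% of all genes. Kitl, the KIT ligand that granulosa cells present to the oocyte, was spread over 28.0, 7.38 and 61.2 FPKM at 10 months and enclosed the mural values of 33.6 and 36.1 (adjusted p = 0.621). Its direction turned without 10-month replicate 2 (log2 fold change -0.25). The 2-month cumulus libraries lay at 5.49, 7.66 and 7.62 FPKM, so replicate 2 at 10 months alone was at the young level. The numbers for the list fell to 0 higher and 0 lower without mural replicate 2 and to 1 and 1 without mural replicate 1, and the number that passed as higher to 2 without 10-month cumulus replicate 1 and to 3 without 2-month cumulus replicate 2.

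**Figure D3:**
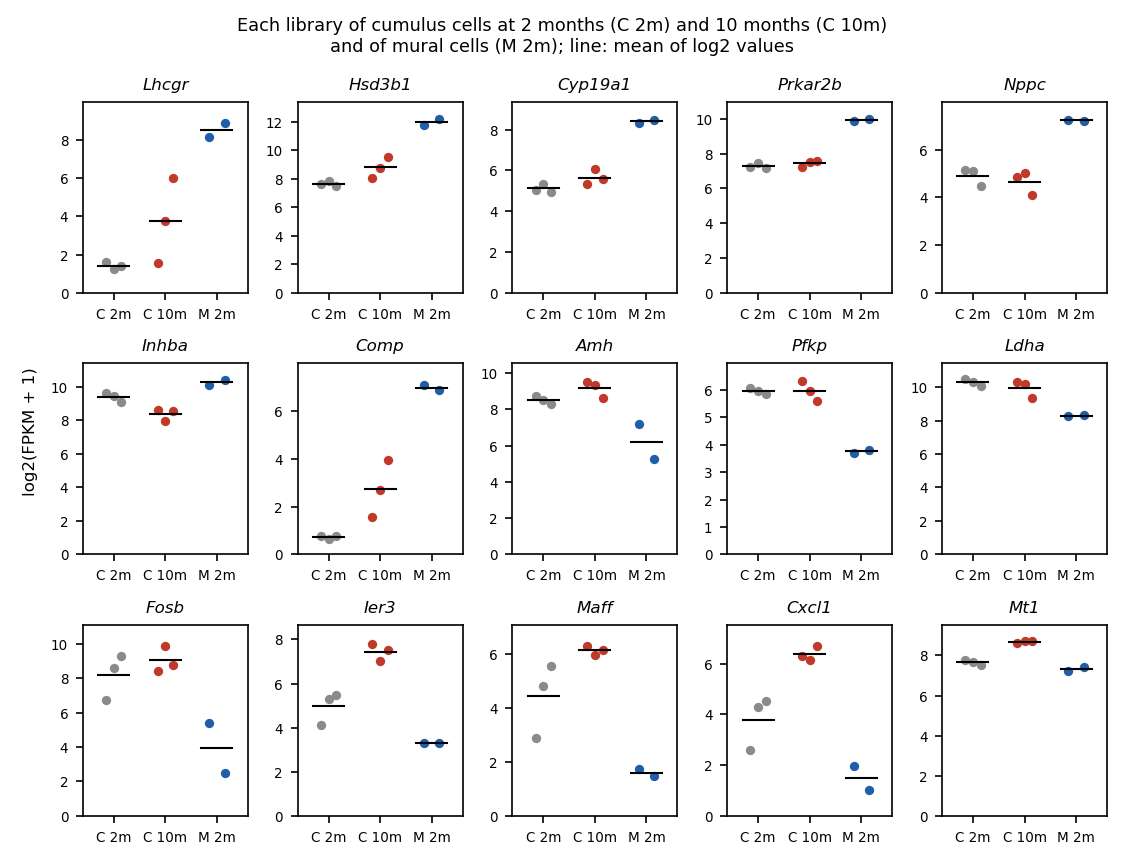
log2(FPKM + 1) of 15 genes in each library of cumulus cells at 2 months (C 2m, n = 3) and at 10 months (C 10m, n = 3) and mural cells (M 2m, n = 2), with a line at the mean of each group. The mural libraries lie above all cumulus libraries in Lhcgr, Hsd3b1, Cyp19a1, Prkar2b, Nppc, Inhba and Comp and below them in Amh, Pfkp, Ldha, Fosb, Ier3, Maff, Cxcl1 and Mt1. In Ier3, Maff, Cxcl1 and Mt1 the 10-month libraries lie above all others.

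Some matrix genes were higher in mural cells, among collagens, proteases and proteoglycans alike. Among collagens and basement membrane genes, 9 of 24 tested members (25 listed) passed as higher and 0 as lower, beside 7.32% and 7.93% of all genes. The median was 1.33. Lama4, a laminin chain, stood at 2.33, 3.24 and 6.28 FPKM at 10 months and 18.3 and 23.6 in mural cells (log2 fold change 2.22 ± 0.32, adjusted p = 0.00973). Col4a5, a type IV collagen chain of basement membranes, stood at 4.16, 3.24 and 7.23 against 18.6 and 15.5 FPKM and Col6a1, a type VI chain, at 13.2, 18.6 and 19.2 against 47.1 and 66.2. These 3 genes, chosen for a small p, were each higher in both mural libraries than in any older cumulus library, and 16 of the 24 members did not overlap between the groups, beside 51.2% of all genes. Of 20 tested matrix proteases and inhibitors (26 listed), 6 passed as higher and 0 as lower, beside the same shares of all genes, with a median of 0.64. Ctsb, the lysosomal protease cathepsin B, stood at 41.4, 46.7 and 59.4 against 105 and 139 FPKM, and Timp2, an inhibitor of metalloproteases, at 6.10, 6.12 and 10.5 against 22.3 and 23.5. Mmp14, a membrane-bound protease, stood at 25.1, 22.4 and 28.0 FPKM at 10 months and 47.3 and 54.5 in mural cells, beside 15.9, 15.1 and 10.8 at 2 months. Of 18 tested proteoglycans and glycoproteins (25 listed), 7 passed as higher, beside 7.32% of all genes, and 0 as lower, with a median of 0.82. Comp, a cartilage matrix protein, stood at 1.94, 5.40 and 14.4 against 134 and 116 FPKM (log2 fold change 4.25 ± 0.57, adjusted p = 0.00849). Gpc4, a cell-surface glypican, stood at 41.3, 38.8 and 66.9 against 149 and 157 FPKM and Vcan, the proteoglycan versican, at 46.7, 44.8 and 69.8 against 116 and 123. Spock2, a secreted proteoglycan, was intermediate at 10 months: its cumulus libraries stood at 29.1, 19.5 and 24.8 FPKM, against 8.63, 9.41 and 7.82 at 2 months and 41.0 and 42.8 in mural cells (log2 fold change mural against 10 months 0.77, adjusted p = 0.0317).

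Markers of other cells moved with the matrix genes, and their part in these differences was not tested. Of 10 tested endothelial markers, 3 passed as higher in mural cells (Eng, Cldn5 and Egfl7), and of 15 tested theca and stroma markers, 3 did (Aldh1a1, Cyp17a1 and Lum). In either list 0 passed as lower, and the shares over all genes were 7.32% higher and 7.93% lower. Eng, an endothelial receptor, stood at 0.269, 0.830 and 2.57 FPKM at 10 months and 4.62 and 12.5 in mural cells. Col1a1, the fibrillar collagen of stroma, did not pass at 1.36, 1.13 and 3.85 against 4.51 and 13.1 FPKM (adjusted p = 0.0570). Mural replicate 2 was the highest library for both. Without it, 0 members of any of the 3 matrix lists passed, and without mural replicate 1 the numbers were 1, 1 and 0 for collagens, proteases and proteoglycans. Without 10-month cumulus replicate 1 they were 3, 3 and 3, and without replicate 3 they were 16, 7 and 8. Without 10-month cumulus replicate 2, collagens gave 5, and without each of 2-month cumulus replicates 1 and 2 they gave 6, while proteases gave 4 without either replicate 2 and proteoglycans 4 and 3 without 2-month replicates 1 and 2. Without 10-month cumulus replicate 3, 7 theca and stroma and 7 endothelial markers passed. Theca and stroma markers came to 0 without either mural library and to 1 without 2-month replicate 2. Endothelial markers came to 1 without mural replicate 1, and to 0 without mural replicate 2 or without replicate 1 or 2 of either cumulus group.

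Most genes of glycolysis were higher in cumulus cells at 10 months than in mural cells. Of 19 tested genes of 20, 12 passed as lower in mural cells and 0 as higher, beside 7.93% and 7.32% of all genes, with a median of -0.99. Pfkp, the platelet-type phosphofructokinase that oocyte factors are known to promote, stood at 78.8, 60.8 and 48.0 FPKM at 10 months and 12.0 and 13.1 in mural cells (log2 fold change -2.20 ± 0.21, adjusted p = 0.00417). Ldha, lactate dehydrogenase A, stood at 1263, 1162 and 644 against 304 and 322 FPKM (log2 fold change -1.65, adjusted p = 0.0167). Replicate 3 was the lowest of the older cumulus libraries in both. Slc2a1, the glucose transporter GLUT1, stood at 49.8, 48.8 and 40.5 against 20.02 and 21.6 FPKM and Pgk1, phosphoglycerate kinase, at 496, 527 and 372 against 177 and 206. The 2-month cumulus libraries held 36.1, 40.3 and 33.0 FPKM of Slc2a1 and 543, 557 and 525 of Pgk1. The interval was within 2-fold for 5 of the 19, a share below the 55.9% of all genes. Hk1, Pfkm, Pgam1 and Slc16a1 were among them without passing. Against 2-month cumulus cells, 15 members were lower in mural cells, beside 11.3% of all genes, with a median of -1.09. The number that passed was 1 without either mural library, 4 without 10-month cumulus replicate 1 and 7 without either replicate 2 of cumulus cells.

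Some genes of amino acid supply and serine synthesis were also lower in mural cells. Of 26 tested genes of 27, 9 passed as lower in mural cells and 0 as higher, beside 7.93% and 7.32% of all genes, with a median of -0.64. Slc7a5, which imports large neutral amino acids, stood at 154, 97.2 and 93.2 FPKM at 10 months and 39.9 and 41.5 in mural cells (log2 fold change -1.44 ± 0.22, adjusted p = 0.0112). Shmt2, the mitochondrial enzyme that feeds serine carbon to folate, stood at 127, 104 and 56.1 against 30.7 and 29.4 FPKM. Slc38a4 stood at 6.02, 4.49 and 4.10 against 1.53 and 0.912 FPKM, and Slc7a11, the cystine importer, at 10.4, 7.08 and 8.92 against 3.83 and 4.25. These 4 genes were chosen for a small p, and 17 of the 26 members did not overlap between the groups, beside 51.2% of all genes. The number came to 0 without either mural library, 2 without 10-month cumulus replicate 1 and 5 without 2-month cumulus replicate 2.

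Mural cells held lower levels of some cell cycle genes. Among 26 replication genes, 10 passed as lower and 0 as higher, beside 7.93% and 7.32% of all genes, with a median log2 fold change of -0.66. Against 2-month cumulus cells, 25 were lower, beside 11.3% of all genes, with a median of -1.18. The helicase subunit gene Mcm6 stood at 88.7, 89.4 and 65.8 FPKM at 10 months and 42.6 and 41.5 in mural cells (log2 fold change -0.92 ± 0.17, adjusted p = 0.0169), and at 112, 114 and 98.6 in 2-month cumulus cells. The older cumulus libraries thus lay between the other groups, with replicate 3 lowest. Pcna, the sliding clamp, stood at 261, 249.3 and 174 against 112 and 123 FPKM and Mcm10 at 15.2, 15.4 and 11.9 against 6.82 and 7.75. Of 26 mitosis genes, 6 passed as lower and 0 as higher, with a median of -0.50, against 23 lower and -0.98 with 2-month cumulus cells. Of all genes, 7.93% and 11.3% were lower in these comparisons. Aurka, a spindle kinase, stood at 35.6, 39.1 and 26.1 (10 months), 18.6 and 18.1 (mural) and 52.3, 46.5 and 48.3 (2-month cumulus) FPKM. Bub1b, a spindle checkpoint kinase, stood at 40.6, 47.2 and 39.1 (10 months), 25.9 and 20.9 (mural) and 61.8, 54.3 and 79.5 (2-month cumulus) FPKM. Intervals between mural and 10-month cumulus cells were within 2-fold for 10 of 26 replication and 14 of 26 mitosis genes (Mki67, Top2a and Plk1 among the latter), beside 55.9% of all genes. Between cumulus cells at 10 and 2 months the medians were -0.47 and -0.51, and 0 members passed. For replication and mitosis, 0 and 0 passed without mural replicate 1, mural replicate 2 or 10-month cumulus replicate 1. The numbers were 17 and 14 without 10-month cumulus replicate 3, and 3 and 2 without 10-month cumulus replicate 2. They were 3 and 1 without 2-month cumulus replicate 2, and mitosis gave 4 without 2-month replicate 1.

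Immediate early genes, which growth factors, stress and cell handling induce within minutes, had the lowest median of the 30 lists. Of 29 tested genes of 30, 23 passed as lower in mural cells and 0 as higher, beside 7.93% of all genes lower, with a median log2 fold change of -2.87. Fosb, an AP-1 subunit, stood at 338, 946 and 436 FPKM at 10 months and 41.7 and 4.60 in mural cells (log2 fold change -5.07 ± 0.98, adjusted p = 0.0199). Its 2-month cumulus libraries, at 106, 375 and 614 FPKM, overlapped those of 10 months. Ier3, a survival factor of the immediate early class, stood at 219.8, 129.9 and 184 against 8.89 and 8.75 FPKM (log2 fold change -4.15 ± 0.40, adjusted p = 0.00417), and at 16.5, 38.1 and 43.9 at 2 months. Here every 10-month library lay above every other library. Maff, a small MAF transcription factor, stood at 78.0, 60.9 and 70.2 against 2.31 and 1.78 FPKM (log2 fold change -4.54 ± 0.65, adjusted p = 0.0101) and Btg2, an antiproliferative gene also on the growth arrest list, at 64.2, 156 and 117 against 12.7 and 10.0 (log2 fold change -3.11, adjusted p = 0.0109). Atf3, a stress-induced factor, stood at 25.5, 43.7 and 45.0 FPKM at 10 months, 0.662 and 0.533 in mural and 0.445, 6.78 and 21.6 in 2-month cumulus cells. Klf4, a zinc-finger factor, stood at 55.7, 96.4 and 58.8 (10 months), 3.07 and 0.798 (mural) and 3.06, 26.8 and 54.5 (2-month cumulus) FPKM, and Fos at 311, 1563 and 699 (10 months), 106 and 26.4 (mural) and 351, 850.1 and 852 (2-month cumulus). In Atf3 and Klf4, 2-month cumulus replicate 1 lay near the mural values and replicate 3 nearer to 10 months. The list median in log2(FPKM + 1) was 6.00, 6.61 and 6.43 at 10 months, 3.86 and 3.28 in mural cells, and 3.66, 5.10 and 5.58 in 2-month cumulus replicates 1, 2 and 3. By this median the older cumulus libraries were alike and the young ones were spread. The summed FPKM of the list was spread in both groups, at 2953, 6999 and 4102 at 10 months and 1637, 3336 and 3812 at 2 months. The number that passed was 13 without 10-month cumulus replicate 1, 15 without replicate 2, 3 without mural replicate 1 and 1 without mural replicate 2.

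Promoter sequence was examined for this list and for replication and steroid genes, whose members that passed all went in 1 direction. Windows reached from 250 bases before to 50 bases after each transcription start in RefSeq (build GRCm38.p6, matched by symbol, whereas the FPKM were made on mm9), and motifs were sought on either strand. The cyclic AMP response element TGACGTCA occurred in 3 of 23 immediate early genes with a window (13.0%), Dusp1, Btg2 and Maff, and in 549 of the 27025 genes with a RefSeq window (2.03%). Of the 18 immediate early genes with a window that passed, 2 held it. The E2F motif TTCCCGC occurred in 7 of 20 replication genes with a window (35.0%) and in 1429 of all genes (5.29%). Of the 8 replication genes with a window that passed, 2 held it (Mcm7 and Cdt1), so most genes with the motif had not passed. The NR5A motif AAGGTCA occurred in 0 of 11 steroid genes with a window and in 1454 of all genes (5.38%). A gene with several starts counted once if any window held the motif. These are descriptions of letters, not of binding sites. The 250 bases before the start are shown for Btg2 (minus strand, chr1:134079156-134079405), for the start of Maff that holds the element (plus strand, chr15:79347270-79347519) and for Mcm7, a helicase subunit that was lower in mural cells (minus strand, chr5:138171884-138172133), with the motif in capitals.
Btg2: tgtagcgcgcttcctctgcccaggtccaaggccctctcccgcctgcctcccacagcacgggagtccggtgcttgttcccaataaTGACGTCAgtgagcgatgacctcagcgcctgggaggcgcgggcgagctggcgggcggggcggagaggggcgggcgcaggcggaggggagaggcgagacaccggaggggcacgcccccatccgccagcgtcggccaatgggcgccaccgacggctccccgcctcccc
Maff: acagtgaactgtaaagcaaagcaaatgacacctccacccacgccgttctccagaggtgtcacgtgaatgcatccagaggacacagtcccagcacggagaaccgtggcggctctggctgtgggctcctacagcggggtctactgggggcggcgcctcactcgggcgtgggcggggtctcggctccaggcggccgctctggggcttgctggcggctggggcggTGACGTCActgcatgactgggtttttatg
Mcm7: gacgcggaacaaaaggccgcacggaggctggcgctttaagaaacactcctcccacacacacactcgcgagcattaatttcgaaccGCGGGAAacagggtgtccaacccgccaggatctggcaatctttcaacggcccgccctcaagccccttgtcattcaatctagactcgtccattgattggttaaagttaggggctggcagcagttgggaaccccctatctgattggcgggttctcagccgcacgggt
In Btg2 the element began 166 bases before the start and in Maff 29 bases before it. In Mcm7 the capitals show the E2F motif as its reverse complement, 165 bases before the start. Mcm7 itself stood at 88.5, 97.5 and 63.4 FPKM at 10 months and 45.9 and 43.0 in mural cells (log2 fold change -0.87, adjusted p = 0.0341).

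Some inflammatory genes were lower in mural than in older cumulus cells. Young cumulus cells lay near the mural level for some of them, such as Cxcl10, and between the groups for others, such as Nfkbia. Of 25 tested genes of 29, 11 passed as lower in mural cells and 1 as higher (Il18), beside 7.93% and 7.32% of all genes, with a median of -1.70. Cxcl1, a neutrophil-attracting chemokine, stood at 77.0, 69.5 and 102 FPKM at 10 months, 2.92 and 1.01 in mural and 5.03, 18.3 and 21.8 in 2-month cumulus cells (log2 fold change mural against 10 months -4.88 ± 0.56, adjusted p = 0.00585). Cxcl10, an interferon-inducible chemokine, stood at 31.1, 10.8 and 21.0 (10 months), 0.187 and 0.844 (mural) and 0, 0.925 and 1.96 (2-month cumulus) FPKM (-3.77 ± 0.54, adjusted p = 0.00997). Every older cumulus library was above every other library in both. Nfkbia, the inhibitor that NF-kappaB induces against itself, stood at 71.7, 90.2 and 83.5 against 19.2 and 14.7 FPKM, and Tnfaip3, another brake of that pathway, at 8.04, 8.36 and 21.9 against 0.405 and 0.457. Ptgs2, the prostaglandin synthase of cumulus expansion, stood at 27.6, 2.17 and 27.6 against 0.128 and 0 FPKM, with replicate 2 far below the other older libraries (log2 fold change -3.69 ± 0.89, adjusted p = 0.0336). Other expansion and ovulation genes were uneven at 10 months. Areg, an EGF-like ligand, stood at 5.70, 0.914 and 88.5 FPKM against 3.54 and 3.799 in mural cells, and Tnfaip6, which cross-links the hyaluronan matrix, at 9.37, 1.57 and 25.7 against 0.878 and 0.413. Of 17 tested genes of that list of 19, 1 passed as lower (Ptgs2) and 1 as higher (Vcan), shares near the 7.93% and 7.32% of all genes. Without 10-month replicate 2 the numbers were 5 and 1. Neither passed without 10-month replicate 1 or either mural library, and Ptgs2 did not pass without 2-month replicate 1 or 2. Without 2-month replicate 3, 2 passed as lower. Medians of the inflammation list were -0.09 for mural against 2-month cumulus cells and 1.40 for 10 months against 2 months. In the former 2 passed as lower and 3 as higher, beside 11.3% and 10.5% of all genes, and in the latter 0 passed. Of 16 tested immune markers, 2 passed as lower in mural cells (Cd14 and H2-Ab1) and 0 as higher, beside 7.93% and 7.32% of all genes. The median was -0.47 and changed sign under 1 of 20 alternatives, and the macrophage gene Lyz2 overlapped between the groups. Without 10-month cumulus replicate 2, replicate 3 or 2-month replicate 3 the number of immune markers that passed was 1, and without any of the other libraries 0. The part of immune cells in the chemokine values was not tested. The inflammation count of lower genes was 7 without 10-month cumulus replicate 1, 2 without mural replicate 1 and 0 without mural replicate 2, and Il18 did not pass in any of these.

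Some growth arrest and heat shock genes were lower in mural cells than in older cumulus cells. Cdkn1a, the p53 target p21 that stops the cell cycle, stood at 69.4, 20.2 and 92.1 FPKM at 10 months, 4.32 and 8.18 in mural and 6.25, 8.01 and 9.39 in 2-month cumulus cells (log2 fold change mural against 10 months -2.89 ± 0.58, adjusted p = 0.0217). The mural and young cumulus libraries lay together, and the older ones above them. Gadd45b, a stress-induced gene, stood at 27.1, 55.5 and 29.2 (10 months), 5.21 and 4.63 (mural) and 12.1, 17.0 and 21.0 (2-month cumulus) FPKM, and Mdm2, which encodes the ubiquitin ligase of p53, at 29.6, 25.4 and 31.3 (10 months), 16.4 and 16.9 (mural) and 18.8, 18.9 and 22.4 (2-month cumulus). Of 23 tested growth arrest and p53 genes (24 listed), 6 passed as lower in mural cells and 1 as higher (Ccnd1, a D cyclin), beside 7.93% and 7.32% of all genes. The median was -0.45. The number lower was 2 without 10-month cumulus replicate 1, 1 without mural replicate 1, 0 without mural replicate 2 and 4 without 2-month cumulus replicate 2. Ccnd1 did not pass without any of 10-month cumulus replicate 1, either mural library, or 2-month cumulus replicates 1 and 2. Among 23 heat shock and unfolded protein genes, 7 passed as lower and 0 as higher, beside the same shares of all genes, with a median of -0.69. Atf4, the transcription factor of the integrated stress response, stood at 428, 300.2 and 282 FPKM at 10 months, 87.2 and 95.3 in mural and 141, 209 and 223 in 2-month cumulus cells (log2 fold change -1.85 ± 0.25, adjusted p = 0.00888). Dnajb1, an HSP40 co-chaperone, stood at 90.6, 202 and 80.8 (10 months), 29.0 and 18.5 (mural) and 59.96, 80.3 and 100.4 (2-month cumulus) FPKM. The interval was within 2-fold for 6 of the 23, a share below the 55.9% of all genes. The endoplasmic reticulum chaperones Hspa5, Hsp90b1, Calr and Pdia4 were among them. The heat shock number was 0 without either mural library, 4 without 10-month replicate 1 or 2, and 3 without 2-month cumulus replicate 2.

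Metallothioneins, small proteins that bind zinc and other metals, were highest in older cumulus cells, while the other genes of the metal-binding and antioxidant list that passed were divided in direction. Mt1 stood at 386, 421 and 425 FPKM at 10 months, 150.2 and 172 in mural and 218, 202 and 181 in 2-month cumulus cells (log2 fold change mural against 10 months -1.35 ± 0.15, adjusted p = 0.00544). Mt2 stood at 95.3, 107 and 129 (10 months), 49.5 and 31.1 (mural) and 21.3, 29.4 and 33.0 (2-month cumulus) FPKM (log2 fold change -1.46 ± 0.26, adjusted p = 0.0156). In both, the older libraries were close together and above all others. The antioxidant enzyme gene Hmox1 (heme oxygenase 1) stood at 61.1, 46.2 and 75.1 against 16.2 and 24.2 FPKM. Gpx8, an endoplasmic reticulum peroxidase, was higher in mural cells at 25.4, 28.4 and 28.1 against 55.1 and 50.7 FPKM. Sepp1, the secreted selenoprotein P, was intermediate at 10 months, at 13.2, 14.3 and 22.8 FPKM against 4.43, 5.44 and 4.45 at 2 months and 40.5 and 45.2 in mural cells (log2 fold change mural against 10 months 1.34 ± 0.23, adjusted p = 0.0151). Of 28 genes, 5 passed as higher (Sod3, Gpx8, Gstm2, Gsta4 and Sepp1) and 5 as lower (Mt1, Mt2, Txn1, Gclm and Hmox1), beside 7.32% and 7.93% of all genes. The interval was within 2-fold for 9 of the 28, a share below the 55.9% of all genes. Sod1, Sod2, Cat, Gpx4 and the peroxiredoxins Prdx1, Prdx2 and Prdx6 were among them. The numbers that passed as higher and lower were 1 and 2 without mural replicate 1 and 0 and 0 without mural replicate 2.

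Lipid genes were divided. Of 25 genes of cholesterol synthesis and uptake, 5 passed as higher in mural cells (Scarb1, Dhcr7, Ebp, Tm7sf2 and Hsd17b7) and 1 as lower (Insig1, which holds back synthesis). Of all genes 7.32% were higher and 7.93% lower, so the share lower was below that of all genes. The median of the list was -0.18 and changed sign under 3 of 20 alternatives. Scarb1, the receptor that takes up cholesterol from HDL, stood at 255, 242 and 324 against 424 and 778 FPKM. The interval was within 2-fold for 15 of the 25, Hmgcs1, Sqle and Lss among them, a share near the 55.9% of all genes. Of 17 tested lipid handling genes of 19, 3 passed as higher (Soat1, Fabp3 and Npc2) and 3 as lower (Vldlr, Lrp8 and Apoa1), beside the same shares of all genes. Their median was 0.04 and changed sign under 2 of 20 alternatives. Soat1, which esterifies cholesterol for storage, stood at 57.3, 42.5 and 80.6 against 127 and 169 FPKM, and Vldlr, a lipoprotein receptor, at 18.1, 8.55 and 11.5 against 4.48 and 4.36. For cholesterol genes, 0 passed without mural replicate 2, 10-month cumulus replicate 1 or 2-month cumulus replicate 2. The numbers higher and lower were 2 and 0 without mural replicate 1, 5 and 3 without 10-month replicate 3, and 1 and 1 without 10-month replicate 2 or 2-month replicates 1 or 3. For lipid handling 0 passed without either mural library, 0 and 1 without 10-month replicate 1, 4 and 5 without replicate 3, 2 and 1 without either replicate 2 or 2-month replicate 1, and 3 and 1 without 2-month replicate 3.

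Among insulin-like growth factor genes, 4 of 16 tested (17 listed) passed as higher in mural cells (Pappa, Igfbp4, Insr and Irs1) and 1 as lower (Irs2), beside 7.32% and 7.93% of all genes. Pappa, a protease that cuts the binding protein encoded by Igfbp4, stood at 0.223, 0.708 and 4.29 FPKM at 10 months and 14.3 and 18.8 in mural cells (log2 fold change 2.97 ± 0.55, adjusted p = 0.0178). Irs2, an adaptor of the insulin receptor, went the other way at 23.8, 16.2 and 12.7 against 2.46 and 1.34 FPKM (log2 fold change -2.66, adjusted p = 0.0291). Of 21 tested WNT and Notch genes of 26, 4 passed as lower (Wnt5b, Tcf7, Hey1 and Heyl), beside 7.93% of all genes. Only 1 passed as higher (Hey2), a share below the 7.32% of all genes. The Notch targets Hey1 and Hey2 thus went opposite ways, at 4.08, 2.91 and 4.24 against 1.00 and 1.51 FPKM and 20.5, 23.7 and 20.7 against 42.2 and 38.9. In both lists 0 passed without either mural library. Without 10-month cumulus replicate 1 the numbers higher and lower were 2 and 0 for the insulin-like list and 0 and 0 for WNT and Notch. They were 5 and 3, and 6 and 4, without replicate 3. The insulin-like list gave 2 and 0 without 2-month replicate 2, while WNT and Notch gave 2 and 3 without 10-month replicate 2 and 1 and 6 without 2-month replicate 3. The interferon response, with 23 tested genes of 26, had 1 member lower in mural cells (Irf1) and 0 higher, shares below the 7.93% and 7.32% of all genes. Irf1 did not pass without any of 10-month cumulus replicates 1 and 2, either mural library, or 2-month replicate 2.

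**Figure D4:**
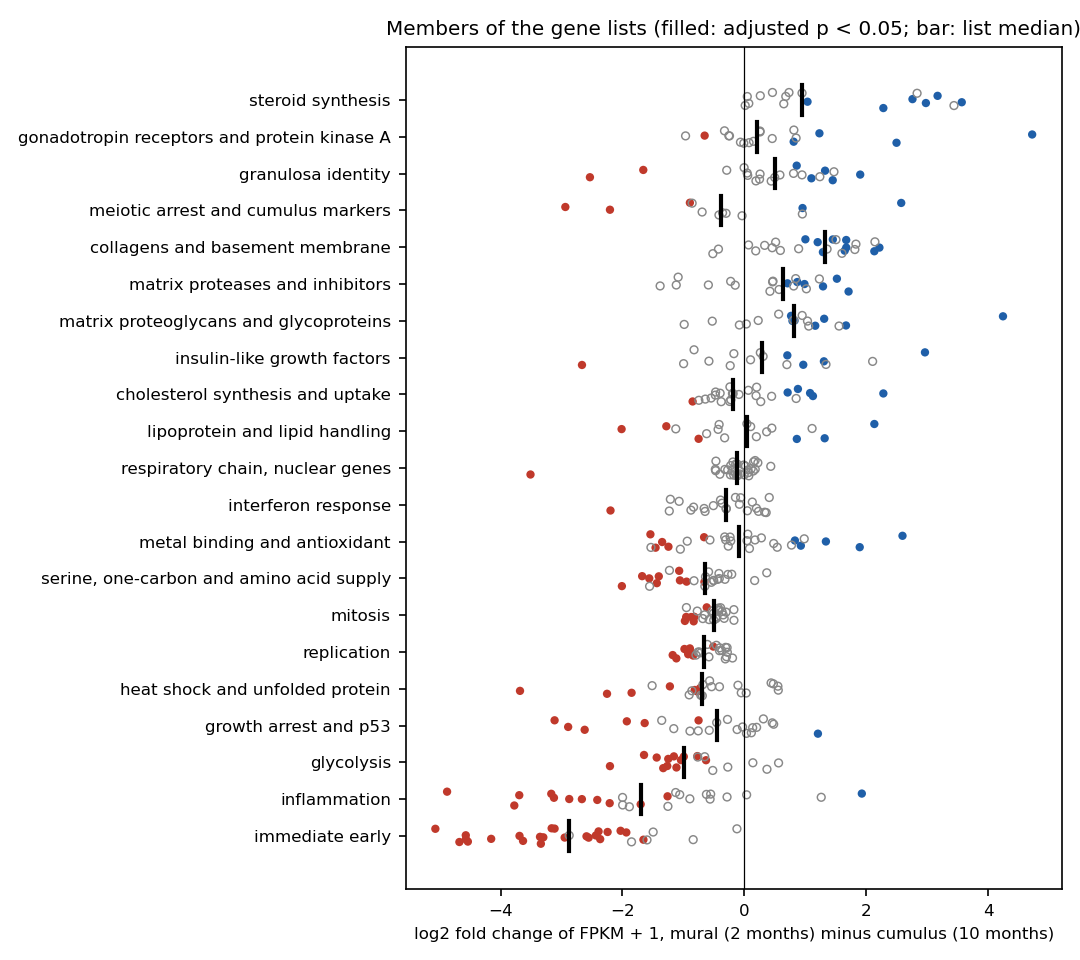
log2 fold change of FPKM + 1 between mural cells and cumulus cells at 10 months (horizontal axis, positive where mural is higher) for each tested member of 21 gene lists, filled where it passed, with a bar at the list median. Immediate early genes have the lowest median (-2.87), collagens and basement membrane genes the highest (1.33), and respiratory chain genes lie close to 0 apart from Ndufa4l2.

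What older cumulus cells and mural cells have in common was measured by intervals, since a p that misses the threshold does not show that levels are alike. Nuclear genes of the respiratory chain were held most tightly. The interval lay within 2-fold for 31 of 32 members, beside 55.9% of all genes. The exception was Ndufa4l2, a hypoxia-induced relative of a complex IV subunit, at 66.4, 78.4 and 26.5 FPKM at 10 months, 3.09 and 4.24 in mural and 42.4, 29.0 and 35.9 in 2-month cumulus cells (log2 fold change -3.51 ± 0.42, adjusted p = 0.00627). In contrast the interval lay within 2-fold for 0 of 29 immediate early, 1 of 25 inflammation, 2 of 24 collagen and basement membrane and 5 of 19 glycolysis genes. On the scale used, differences of genes with low FPKM are compressed, so that their intervals are narrow for this reason too. For the respiratory chain list the median log2 fold change of mural against 10-month cumulus cells was -0.12 and changed sign under 3 of 20 alternatives. For mural against 2-month cumulus cells it was -0.22. There 1 member passed as lower and 0 as higher, beside 11.3% and 10.5% of all genes. Between cumulus cells at 10 and 2 months the median of this list was -0.15, where 0 passed. The likeness in this list was thus not shown to be particular to older cumulus cells.

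A further set of 16 genes was chosen because the 5 libraries of 10-month cumulus and mural cells all lay on one side of the 3 libraries of 2-month cumulus cells, with means of those groups less than 1 apart on the log2 scale. The 8 with the largest distance from young cumulus cells were taken in each direction. Their values are descriptions and carry no test of that choice, and their means are alike by choice. Apoe, which carries lipids in lipoproteins, stood at 28.8, 51.9 and 60.02 FPKM at 10 months, 55.0 and 61.4 in mural cells and 7.35, 8.11 and 7.61 in 2-month cumulus cells, with a 95% interval of the log2 difference between mural and 10-month cells of -0.28 to 1.02. Tmsb4x, thymosin beta 4, which binds actin monomers, stood at 40.9, 49.5 and 271 (10 months), 94.2 and 192 (mural) and 5.08, 3.11 and 5.13 (2-month cumulus) FPKM. Cited2, a transcriptional coregulator, stood at 123, 48.8 and 183 (10 months), 172 and 234 (mural) and 8.61, 12.3 and 32.2 (2-month cumulus) FPKM. In Tmsb4x and Cited2 the older libraries were spread widely, with replicate 3 highest. Lyz2, lysozyme of macrophages, stood at 6.91, 13.96 and 24.2 (10 months), 5.69 and 22.8 (mural) and 0.116, 0.971 and 0.934 (2-month cumulus) FPKM. It moved with the immune list, whose part was not tested. Itga5, the fibronectin receptor subunit, stood at 19.1, 5.07 and 24.8 FPKM at 10 months and 12.2 and 14.9 in mural cells, Bmp2 at 6.38, 1.42 and 14.3 and 8.70 and 3.43, and Emp1 at 22.4, 1.083 and 58.6 and 3.93 and 11.9, each with replicate 2 at 10 months far below the other older libraries. Their intervals were wide, from -1.30 to 1.26 for Itga5, so the likeness of the means is loosely bounded.

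Of the 8 genes lower in both groups than in young cumulus cells, 3 had an interval within 2-fold (Rassf2, Kif26a and Kank4). None of the 8 higher genes had one, and 55.9% of all genes did. Since the means were alike by choice, these intervals describe the chosen genes and are no test of likeness. Rassf2, a RAS-association domain gene, stood at 14.3, 18.7 and 14.9 FPKM at 10 months, 17.7 and 17.9 in mural and 48.3, 45.2 and 35.1 in 2-month cumulus cells, with an interval of -0.26 to 0.57. Crabp2, a retinoic acid binding protein, stood at 61.9, 98.0 and 45.8 (10 months), 40.7 and 35.8 (mural) and 192, 146 and 135 (2-month cumulus) FPKM, and Mfsd2a, a lipid transporter, at 36.7, 61.7 and 28.8 (10 months), 37.3 and 26.3 (mural) and 105, 72.9 and 72.8 (2-month cumulus). Kif26a stood at 9.59, 12.2 and 7.52 (10 months), 8.48 and 8.84 (mural) and 26.4, 22.3 and 15.9 (2-month cumulus) FPKM, with an interval of -0.71 to 0.44. The older and mural libraries overlapped in Rassf2, Mfsd2a and Kif26a, but not in Crabp2. Relt, a member of the TNF receptor family, was at 4.42, 10.1 and 4.65 (10 months), 4.17 and 3.33 (mural) and 36.9, 19.6 and 18.2 (2-month cumulus) FPKM, Art4 at 7.90, 17.6 and 8.45 (10 months), 10.2 and 8.15 (mural) and 32.8, 31.7 and 20.4 (2-month cumulus), and Kank4 at 3.65, 6.25 and 3.45 (10 months), 2.81 and 3.78 (mural) and 12.2, 10.1 and 7.69 (2-month cumulus). In each of these 7 genes and in Dusp9, replicate 2 was the highest of the older libraries. Dusp9, a MAP kinase phosphatase, was the one gene among these 16 that also passed between the groups, at 6.27, 6.77 and 5.32 against 2.75 and 3.18 FPKM (log2 fold change -0.84, adjusted p = 0.0337), and at 16.1, 14.02 and 10.5 in young cumulus cells. Between cumulus cells at 10 and 2 months, none of the 16 passed, and Apoe and Rassf2 had the smallest adjusted p among them, at 0.0829 each.

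**Figure D5:**
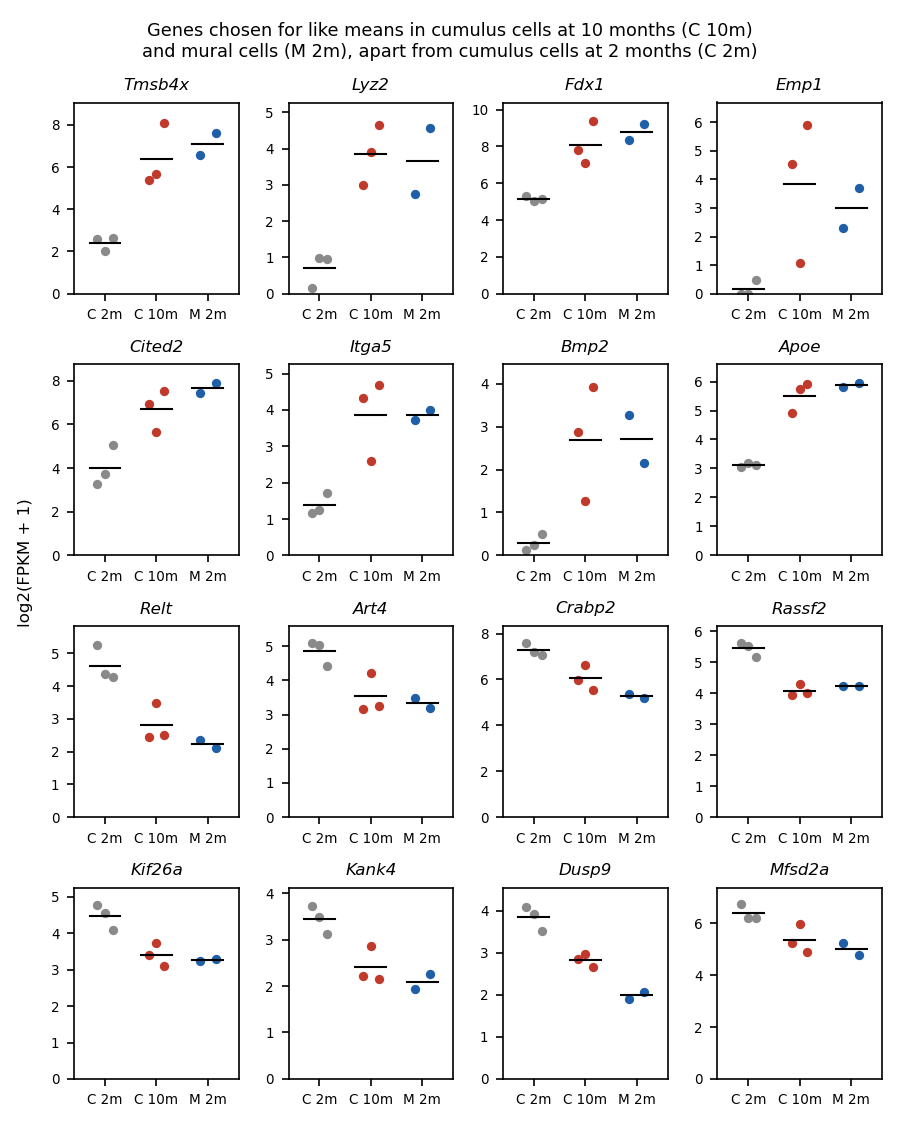
log2(FPKM + 1) of 16 genes chosen for like means in cumulus cells at 10 months (C 10m, n = 3) and mural cells (M 2m, n = 2) that lie on one side of cumulus cells at 2 months (C 2m, n = 3), with a line at each group's mean. In the top 8 panels the older cumulus libraries are spread, most in Emp1, and in the lower 8 panels replicate 2 is the highest of them.

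The converse set held genes that separated older cumulus cells from mural cells although the means of young cumulus and mural cells, by choice, differed by less than 0.5 on the log2 scale. They were also chosen for having passed, so the level of 2-month cumulus cells and the test are both given as descriptions. Besides Mt1, Cxcl10 and Cxcl2 it held Myc, the growth-promoting transcription factor, at 72.7, 36.3 and 61.9 FPKM at 10 months, 15.04 and 12.2 in mural and 12.2, 18.2 and 15.5 in 2-month cumulus cells (log2 fold change mural against 10 months -1.94 ± 0.30, adjusted p = 0.0112). Slc6a8, the creatine transporter, stood at 13.4, 10.0 and 14.1 (10 months), 4.67 and 4.52 (mural) and 6.19, 6.404 and 6.48 (2-month cumulus) FPKM (log2 fold change -1.26, adjusted p = 0.00871). Gnl2, a nucleolar GTPase of ribosome assembly, stood at 52.6, 42.9 and 58.0 (10 months), 27.6 and 25.9 (mural) and 34.8, 37.8 and 41.5 (2-month cumulus) FPKM. In these genes the older libraries lay above all others. In the other direction Jak1, the kinase of cytokine receptors, stood at 117, 117 and 119.8 FPKM at 10 months, 217 and 219.7 in mural and 170.5, 175 and 157 in 2-month cumulus cells (log2 fold change 0.88 ± 0.12, adjusted p = 0.00895). Sel1l, an adaptor of endoplasmic reticulum protein degradation, stood at 34.5, 34.8 and 35.7 (10 months), 66.3 and 74.8 (mural) and 51.6, 57.7 and 47.0 (2-month cumulus) FPKM (log2 fold change 0.99, adjusted p = 0.00868). In both, the older libraries lay below all others. Pm20d2 stood at 4.77, 5.69 and 4.60 (10 months), 12.5 and 13.2 (mural) and 9.85, 9.95 and 7.24 (2-month cumulus) FPKM. Its older libraries were again the lowest.

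The genes with the largest differences included others not yet described. Higher in mural cells were Prss35, a serine protease-like protein, at 4.06, 19.2 and 35.2 against 93.9 and 186 FPKM, Kcnh2, a potassium channel, at 1.41, 3.08 and 3.94 against 30.3 and 30.4, and Tulp2 at 0.728, 1.87 and 1.54 against 20.1 and 21.2. Cd34, a surface sialomucin used as a mural marker and also made by endothelial cells, stood at 2.01, 3.801 and 17.2 against 44.3 and 64.7 FPKM (log2 fold change 3.09 ± 0.67, adjusted p = 0.0259). Lrp11 stood at 1.49, 2.05 and 12.4 against 42.6 and 44.3 FPKM and Fam162b at 1.29, 1.04 and 9.45 against 24.3 and 41.5. In Prss35, Cd34, Lrp11 and Fam162b replicate 3 was the highest older cumulus library. Of the 118 genes that the naming rule took and that passed, 5 passed without mural replicate 2, 27 without mural replicate 1 and 66 without 10-month cumulus replicate 1. There were 94 without replicate 2 and 115 without replicate 3 at 10 months, and 106, 91 and 114 without 2-month cumulus replicates 1, 2 and 3.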

How the data were processed

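RNA of mouse cumulus and mural granulosa cells was sequenced, and 8 libraries of C57BL/6 mice were used, grouped by their labels. The remaining 2 libraries, of cumulus-oocyte complexes, entered no comparison. The authors deposited FPKM, for which the submitters' processing notes name TopHat2 2.1.0, Cufflinks 2.1.0 and build mm9. The sources used here do not give annotation, strand, read length or read depth. No counting error can therefore be stated, and reads of overlapping or near-identical genes may be split. The table held 23234 symbols, after 1 repeated header line was dropped, of which 23020 matched RefSeq symbols or synonyms.

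The 12510 genes that averaged 1 FPKM or more in the 5 libraries compared entered a linear model of log2(FPKM + 1) with a term per group over 8 libraries, using limma 3.58.1 (R 4.3.3, intensity trend, 5 residual degrees of freedom). The 2-month cumulus libraries add to the estimate of spread. Changes of genes with low FPKM are understated on this scale. Two-sided p-values were adjusted over all genes by the Benjamini-Hochberg method, and a gene passed at an adjusted p under 0.05. On simulated data the model called 48 of 100 genes changed by 1 on the log2 scale, 93 of 100 changed by 2 and 9 of 12310 unchanged genes. The changed genes were drawn from those above a set mean level, and noise was independent for each gene and library. Shifts shared by the genes of a library were not simulated, so these rates cannot be carried over to the real libraries.

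The 30 gene lists held 653 members, of which 650 were in the table and 590 were tested. Members and lists were chosen with earlier results of these data known. Genes were named by a rule: per direction the 10 largest differences that passed, with no overlap and a mean of at least 5 FPKM in the higher group, 4 members of each list with the smallest p, 21 fixed genes, and per direction 8 genes shared with mural cells and 8 apart from them as described beside their values. Predicted genes and small RNA symbols were left out of the largest, shared and apart genes. Some genes that the rule took are not reported here. Other list members named in the text were chosen after their values were seen. Alternatives changed the pseudocount, filter, scaling, libraries in the model, weights and replicate block, or left out each library in turn.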

Additional observations from a re-analysis of the deposited data

How the results depend on the processing

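The 2 mural libraries limited the counts most. Leaving out each library in turn gave 30 to 2801 genes that passed, 17 to 1239 higher and 13 to 1562 lower in mural cells, 30 to 1375 with at least 2-fold and 4704 to 7022 with an interval within 2-fold. With only the 5 libraries compared in the model the numbers were 681 in all, 343 higher, 338 lower and 533 with at least 2-fold. With library weights they were 3833, 1703, 2130 and 1417. Rescaling each library to the same FPKM sum gave 1537 higher and 654 lower, and leaving out Mir and Snor symbols before rescaling gave 1781 higher. Without a filter 11911 genes had an interval within 2-fold, because low genes entered. Replicate numbers were shared by 2 pairs of libraries of the groups compared, whose deviations from the group means correlated at 0.06 and -0.05. With the 2-month cumulus libraries, same-numbered libraries correlated at 0.00762, 0.12 and 0.16 (10-month cumulus) and at 0.0375 and 0.23 (mural). Not every pair was above 0.1, so the numbers were not taken as pairs. With the replicate number as a block, 2536 genes passed, 993 higher and 1543 lower. The cause of these shifts was not tested where none is named. Other pseudocounts, the stricter filter, median centring, quantile normalization and a model without an intensity trend kept all 5 counts within 1.5 times.

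Over 20 alternatives and 161 named genes, 2704 results kept direction and side of the threshold, 414 were lost, 54 were gained and 26 changed direction, of which 0 were genes that had passed. Of medians of the lists, 563 moved by less than the spread and 37 by more. The log2 fold change of Lyz2 became 0.0172 without Mir and Snor symbols, 0.16 with library weights, 0.0771 with the replicate block and 0.22 without 10-month cumulus replicate 3, and ran from -1.10 to 0.73 over the libraries left out. That of Itga5 became 0.00412 at a pseudocount of 0.1, 0.0356 with median centring, 0.16 with rescaling, 0.0275 with quantile normalization, 0.19 without Mir and Snor symbols and 0.27 with the replicate block, and ran from -0.66 to 0.39 over the libraries left out. Bmp2 became -0.0341 with quantile normalization and ran from -0.69 to 0.64 over the libraries left out. Kif26a became 0.0470 with rescaling and 0.0767 without Mir and Snor symbols, and ran from -0.29 to 0.0241 over the libraries left out. Art4 became 0.0148 without Mir and Snor symbols and ran from -0.39 to 0.14. With each library left out in turn, Emp1 ran from -2.23 to 0.19, Kitl from -0.25 to 1.20, Lyz1 from -0.0652 to 1.00 and Slc38a3 from -0.99 to 0.16. The sources used here do not give read depth, and its limit on low values is unknown.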
